A study of Mus musculus with 34 samples.

Results

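Embryonic mouse lungs with global expression of a Lin28A transgene were followed over the last 2 days of gestation that were sampled, from E16.5 (E for embryonic day, 3 libraries) to E18.5 (5 libraries). These 8 of the 34 libraries of the series were chosen by their labels, which give global Lin28A expression, the embryonic day and the tag Vasa in the title. Control lungs, labelled as having no Lin28A expression, with 3 libraries at E16.5 and 5 at E18.5, were set beside them. Each library was poly(A) RNA-seq of embryonic lung, and the labels put doxycycline at 1 g/L in the drinking water from E0.5 (the day of the plug) on control and transgenic samples alike. The labels do not spell out the transgene, the driver or the other alleles of the global or the control embryos, and nothing says that replicates came from separate litters, so p-values measure the spread between these samples. The question put to the data was how far lungs with the transgene moved through late lung development, and which of the changes of control lungs they shared.

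Lin28A is an RNA-binding protein of stem cells and early embryos that blocks the processing of let-7 microRNA precursors. Mature let-7 lowers growth-related transcripts such as Hmga2 and the Igf2bp family, and normally accumulates as tissues differentiate. In the mouse the days from E16.5 to E18.5 carry the lung from branching tubes towards air sacs: the distal epithelium splits into flat alveolar type 1 (AT1) cells for gas exchange and surfactant-producing alveolar type 2 (AT2) cells, the airways form multiciliated and club cells, capillaries close in on the epithelium, and cell division slows.

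The let-7 family members found in RefSeq (GRCm38.p6) numbered 10, and all 10 shared the seed GAGGUAG at bases 2 to 8. A few are shown because the seed, in capitals, is what the sites in target transcripts pair with.
mmu-let-7a-5p (chr13:48538239-48538260, minus strand): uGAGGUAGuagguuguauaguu
mmu-let-7g-5p (chr9:106178846-106178867, plus strand): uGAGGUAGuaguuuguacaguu
mmu-miR-98-5p (chrX:151913229-151913250, plus strand): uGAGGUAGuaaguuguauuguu

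Sites complementary to that seed (CTACCTC, in capitals) are shown from the 3' ends of 3 transcripts that carry out or carry on the Lin28 and let-7 programme: the chromatin protein Hmga2 (chromosome 10), the RNA-binding protein Igf2bp3 (chromosome 6), and Lin28b (chromosome 10), the relative of Lin28a that is itself a let-7 target.
Hmga2: acattcaatttCTACCTCagcat
Igf2bp3: tttttactcaaCTACCTCaggta
Lin28b: gggcgggaagtCTACCTCatgca

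Promoters, each running from 250 bases before to 50 after the start of the gene (RefSeq, GRCm38.p6), are shown for the gene groups on which the comparison turned. Top2a (mitosis) and Mcm6 (DNA replication) overlapped between the stages in global lungs and fell in controls, Tekt4 (cilia) rose in global lungs and Sftpb (surfactant) rose in both. Capitals mark the letters searched for on either strand: CCAAT (the box bound by NF-Y) and TTTGAA (the cell cycle homology region) in Top2a, TTTNGCGC (bound by E2F factors) and CCAAT in Mcm6, GTTGCC (a half-site of RFX factors, which drive cilia genes) in Tekt4, and CTCAAG (the core bound by the lung factor NKX2-1) in Sftpb.
Top2a (chr11:99024140-99024439, minus strand): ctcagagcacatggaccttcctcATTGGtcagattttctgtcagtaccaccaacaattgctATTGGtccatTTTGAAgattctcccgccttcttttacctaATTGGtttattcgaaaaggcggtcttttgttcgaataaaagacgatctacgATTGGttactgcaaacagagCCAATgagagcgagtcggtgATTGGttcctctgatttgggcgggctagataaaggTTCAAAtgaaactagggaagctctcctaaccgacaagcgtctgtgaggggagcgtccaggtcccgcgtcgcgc
Mcm6 (chr1:128359656-128359955, minus strand): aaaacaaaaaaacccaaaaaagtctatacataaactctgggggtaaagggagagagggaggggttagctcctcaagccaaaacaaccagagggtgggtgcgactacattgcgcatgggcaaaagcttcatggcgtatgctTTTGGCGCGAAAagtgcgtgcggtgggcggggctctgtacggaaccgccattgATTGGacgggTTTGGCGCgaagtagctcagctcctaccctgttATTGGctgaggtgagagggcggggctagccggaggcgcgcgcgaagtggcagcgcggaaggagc
Tekt4 (chr17:25471340-25471639, plus strand): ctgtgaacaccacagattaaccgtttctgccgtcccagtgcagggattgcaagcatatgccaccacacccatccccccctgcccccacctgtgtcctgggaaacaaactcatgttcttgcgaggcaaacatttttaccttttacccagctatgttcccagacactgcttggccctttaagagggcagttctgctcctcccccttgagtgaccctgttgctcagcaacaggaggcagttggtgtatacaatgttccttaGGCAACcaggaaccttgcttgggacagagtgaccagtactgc
Sftpb (chr6:72304360-72304659, plus strand): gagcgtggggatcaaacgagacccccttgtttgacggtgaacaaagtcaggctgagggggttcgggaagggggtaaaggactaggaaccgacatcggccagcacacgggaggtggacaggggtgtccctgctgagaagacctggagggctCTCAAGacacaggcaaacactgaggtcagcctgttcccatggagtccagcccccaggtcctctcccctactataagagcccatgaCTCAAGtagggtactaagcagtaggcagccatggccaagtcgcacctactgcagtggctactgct

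Of the 18315 symbols tested, 12672 had such a promoter. The CCAAT letters stood in 21 of 26 mitosis promoters (80.8%) and 17 of 25 DNA replication promoters (68%), against 41.9% of all. TTTGAA stood in 19 of 26 mitosis promoters (73.1%, against 14.7% of all), and TTTNGCGC in 10 of 25 replication promoters (40.0%, against 2.57%). GTTGCC stood in 17 of 32 promoters of multiciliated cell genes (53.1%, against 14.9%) and CTCAAG in 4 of 17 AT2 promoters (23.5%, against 16.7%). Matches can overlap, as 2 of the 3 TTTNGCGC matches of Mcm6 do on opposite strands, and a match describes letters, not a bound site.

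The transgenic label and the tissue were checked on the counts, in CPM, counts scaled by TMM to a common library size. Lin28a stood at 385, 399 and 295 CPM in the E16.5 global libraries and at 458, 531, 475, 744 and 448 CPM at E18.5, against means of 0.447 ± 0.314 (SD, n = 3) and 1.25 ± 1.07 CPM (SD, n = 5) in controls. Its E18.5 values all lay above its E16.5 values, and the step of 0.56 ± 0.34 (log2 fold ± SE) was not called (adjusted p = 0.352, edgeR quasi-likelihood test). Lung epithelium (Nkx2-1, Cdh1, Epcam), lung mesenchyme (Tbx4) and endothelium (Pecam1, Kdr) markers were present in all 8 global libraries: Cdh1 ranged from 223 to 360 CPM and Tbx4 from 139 to 221 CPM. Markers of oesophagus (Krt5, Krt13), thyroid (Tg) and thymus (Rag1, Cd3g) were at or below 1.39 CPM in all 8.

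Some libraries stood apart and bear on the results. The 8 global libraries held 8819589 to 13071874 counts in genes. E18.5 global replicate 2 correlated more closely with the E16.5 global libraries (mean Pearson r = 0.9844 across genes) than with the other E18.5 global libraries (0.9794), whereas the other 4 had 0.9737 to 0.9777 with E16.5 and 0.9803 to 0.9843 with each other's group. On the first principal component, which held 63.2% of the variance, this library lay at 77.8, between the E16.5 global libraries (73.4 to 90.6) and apart from the other E18.5 global libraries (39.4 to 47.3), while control libraries lay from -26.6 to -5.2 at E16.5 and from -111 to -70.1 at E18.5. E18.5 control replicates 1 and 2 had summed levels of immediate early genes of 10166 and 14578 CPM, against 1314 to 1528 CPM in the other E18.5 controls. What set these libraries apart was not tested, and the main results that changed without them are given both ways. Where E18.5 replicates 3 to 5 are named, replicates 1 and 2 were left out of both the global and the control E18.5 groups.

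Between E16.5 and E18.5, 1123 of 18319 genes tested (6.13%) were called in global lungs at an adjusted p under 0.05 by edgeR's quasi-likelihood test, 782 higher (4.27%) and 341 lower (1.86%). Over the same 2 days control lungs had 6645 called genes (36.3%), 3137 higher (17.1%) and 3508 lower (19.1%). The difference between the steps, global minus control, was itself called for 1957 genes (10.7%), 1290 with a higher step in global lungs (7.04%) and 667 with a lower one (3.64%). The steps share no library. With E18.5 replicates 3 to 5 in both genotypes, 1804 genes were called in global lungs, among them 1018 of the 1123. In controls 4747 were then called, 2202 higher and 2545 lower, and the difference was called for 847. Leaving out 1 control library gave 4650 (without E16.5 control replicate 3) to 6948 genes in controls. The count in global lungs depended on the E16.5 group of 3: without E16.5 global replicate 1 it was 57 genes, without replicate 2 it was 383, and without replicate 3 it was 759. Leaving out an E18.5 global library gave 1055, 1469, 615, 543 and 940 genes for replicates 1 to 5.

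Most genes that moved in control lungs had the same sign in global lungs, with a smaller median fold. Of the 3137 genes that rose in controls, 2506 (79.89%) had a positive step in global lungs, 469 (14.95%) were called higher and 10 lower there, and their median step was 0.2502 on the log2 scale in global lungs beside 0.7747 in controls. Of the 3508 that fell in controls, 2774 (79.08%) had a negative global step, 187 (5.331%) were called lower and 8 higher, with medians of -0.1324 and -0.5864. These control medians belong to genes chosen for a call in controls, so the sizes of the medians were not set against each other by a test. The median step over all genes was 0.016 in global and 0.001 in control lungs. Read the other way, 469 of the 782 genes that rose in global lungs also rose in controls (59.97%) and 187 of the 341 that fell also fell (54.84%).

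**Figure D1:**
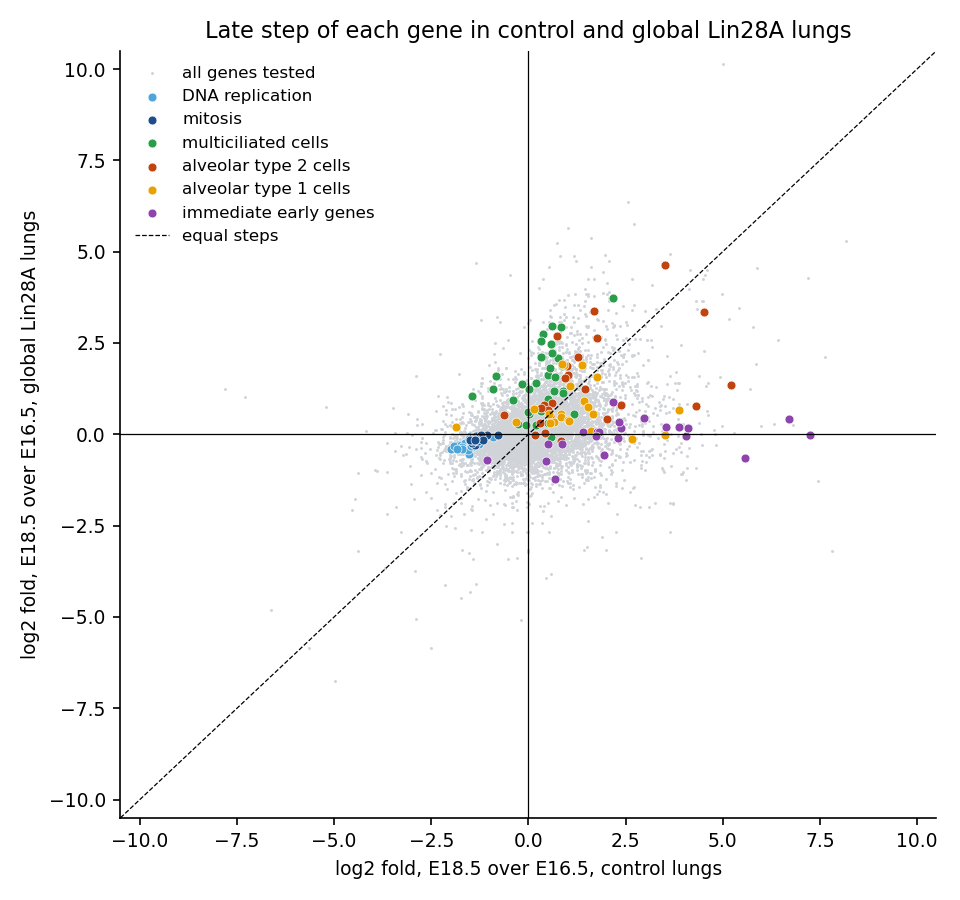
Each point is a gene, with its log2 fold from E16.5 to E18.5 in control lungs on the x axis and in global lungs on the y axis, and the genes of 6 lists coloured. Genes of DNA replication and mitosis lie far to the left and just below 0 on the y axis (medians of -1.54 and -1.37 in controls, -0.31 and -0.15 in global lungs), while genes of multiciliated cells lie higher on the y axis than on the x axis (medians of 1.31 and 0.50).

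Among genes of at least 2 CPM in the higher group whose libraries did not overlap, the 12 largest rises in global lungs were those of Ccdc153, Tmem213, Ifi44, Cbr2, Atp6v0a4, Dpep1, Stk33, Hsd11b1, Plet1, Oasl2, Slc36a2 and Liph. Ccdc153 had 3 counts in the 3 E16.5 libraries together and 134 in the 5 E18.5 libraries, a ratio of 27.8 per effective library size (95% exact interval of the counts 9.3 to 136, counting error only). Tmem213 stood at 0.646, 1.32 and 3.46 CPM at E16.5 and 16.6, 5.65, 21.5, 24.5 and 15.7 CPM at E18.5. It rose by 3.23 ± 0.53 (adjusted p = 0.00147), by more than in controls (difference of the steps 2.67, adjusted p = 0.00674). Hsd11b1, the enzyme that regenerates active glucocorticoid from its inert form, stood at 2.58, 7.32 and 7.42 CPM at E16.5 and at 46.2, 12.2, 39.4, 42.5 and 25.7 CPM at E18.5. It rose by 2.52 ± 0.39 (adjusted p = 0.00122). Dpep1, a kidney and lung dipeptidase, rose by 2.59 (adjusted p = 0.00128) from 2.5 to 4.04 CPM at E16.5 to 10.1 to 28.8 CPM at E18.5. Atp6v0a4, a proton pump subunit of acid-secreting cells, rose by 2.75 and Ifi44, an interferon-induced gene, by 3.05. Ccdc153, Tmem213, Ifi44, Cbr2, Dpep1, Hsd11b1 and Slc36a2 were called in each of the 8 fits that left out 1 global library, whereas Atp6v0a4, Stk33, Plet1, Oasl2 and Liph lost the call without E16.5 replicate 1.

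Among the 12 largest falls under the same rule were those of the embryonic globins Hbb-y and Hba-x, the perinatal myosin Myh8, Nptx2, Zc3h12d, Ngfr, Apba2, Ccl2, Grap2, Cntn2 and Fmn2. Ngfr, a neurotrophin receptor, stood at 7.18, 6.15 and 6.1 CPM at E16.5 and at 1.49, 1.98, 2.31, 1.54 and 1.98 CPM at E18.5. It fell by 1.79 ± 0.24 on the log2 scale (adjusted p = 0.00022). Nptx2, a secreted pentraxin, fell by 2.05 ± 0.34 (adjusted p = 0.00148), and Apba2, an adaptor protein of neurons, by 1.60 ± 0.26 (adjusted p = 0.00148). The step of Apba2 was lower than in controls (difference -1.68, adjusted p = 0.00684). Ngfr, Nptx2 and Apba2 were called in each of the 8 fits without 1 global library, whereas Myh8 was called in 3, Zc3h12d and Grap2 in 2 and Fmn2 in 1. Hbb-y fell by 4.31 ± 0.86 (adjusted p = 0.00419), from 28.2, 6.7 and 6.18 CPM to 0.114, 1.32, 0.298, 0.879 and 0.733 CPM, and lost the call without E16.5 replicate 1, which held its highest value.

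**Figure D2:**
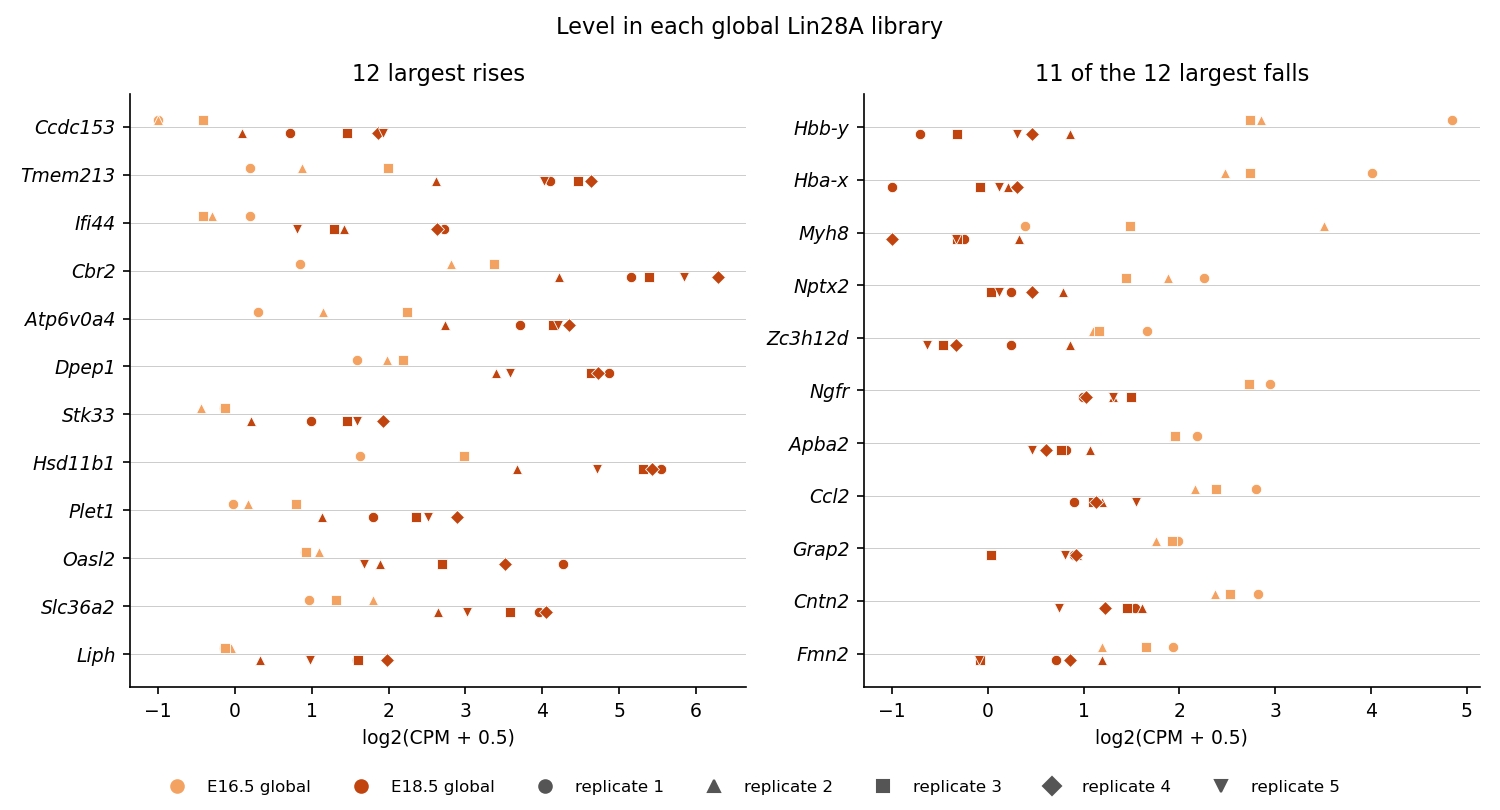
The 12 largest rises and 11 of the 12 largest falls in global lungs, as log2(CPM + 0.5) in each of the 3 E16.5 and 5 E18.5 libraries. For every gene shown the E16.5 and E18.5 points do not overlap, which the choice of the genes required; Ngfr falls from 6.1 to 7.18 CPM at E16.5 to 1.49 to 2.31 CPM at E18.5.

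The members were then followed by the roles of 36 gene lists, which together have 746 places; 738 of these were in the deposited table, 720 passed the filter on low counts, and each count below is of members that passed. Several AT2 genes rose in global lungs, from levels below those of controls. Of 24 AT2 genes, 7 rose and none fell (background 4.27% higher and 1.86% lower), 16 were higher and 0 lower at an unadjusted p under 0.05, and the median step was 0.83. In controls 15 rose and none fell, with a median of 0.96, and the difference of the steps was called for 6 genes. Sftpb, a surfactant protein needed for breathing at birth (chr6:72304610-72314371, GRCm38), stood at 28.8, 45.2 and 66.7 CPM at E16.5. At E18.5 it stood at 219, 38.9, 224, 277 and 264 CPM, so 4 libraries lay above and replicate 2 lay within the E16.5 range. It rose by 2.13 ± 0.43 (adjusted p = 0.0043), beside control means of 1043 ± 271 CPM (SD, n = 3) and 2514 ± 579 CPM (SD, n = 5). The E18.5 global level of Sftpb was thus below the E16.5 control mean in every library.

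Other surfactant genes had the same form. Sftpa1, a collectin of surfactant, stood at 6.05, 6.39 and 11.5 CPM at E16.5 and at 56, 4.52, 49.4, 70.5 and 68 CPM at E18.5, and it rose by 2.65 ± 0.52 (adjusted p = 0.00405). Slc34a2, the phosphate transporter of AT2 cells, stood at 3.55, 6.78 and 16.3 CPM and then at 118, 0.377, 88.7, 135 and 114 CPM, a rise of 3.37 ± 0.75 (adjusted p = 0.00867). In both genes E18.5 replicate 2 lay below every E16.5 library. Sftpc, the hydrophobic surfactant protein made only by the distal lung epithelium, had 270, 348 and 809 CPM and then 1321, 31.8, 1330, 1977 and 2621 CPM, and its step of 1.61 ± 0.67 was not called (adjusted p = 0.149). Without E18.5 replicate 2 the step of Sftpc was 1.93 (adjusted p = 0.0094). Ctsh, a protease that processes surfactant proteins, rose by 1.55 ± 0.33, and Sftpd, Abca3 (the lipid pump of lamellar bodies) and Lamp3 rose as well. The list count was 12 with E18.5 replicates 3 to 5, 15 without E18.5 replicate 2, 4 without E16.5 replicate 2 and 0 without E16.5 replicate 1.

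The AT2 genes whose step was lower in global than in control lungs were Scd1 (a fatty acid desaturase, difference -3.56), Fasn (fatty acid synthase, -1.01), Chil1 (-3.88), Lyz2 (lysozyme, -1.56) and Fabp5 (a fatty acid carrier, -1.62). With E18.5 replicates 3 to 5, Scd1 alone of these kept the call (difference -3.15, adjusted p = 0.00167). Scd1 stood at 24.2, 24.8 and 16.2 CPM in E16.5 global lungs and at 42.9, 29.1, 36.1, 38.9 and 38.3 CPM at E18.5, whereas controls went from 48.4 ± 22.6 CPM (SD, n = 3) to 969 ± 446 CPM (SD, n = 5). The global step of Scd1, 0.77, was not called (adjusted p = 0.212), and its difference was (adjusted p = 7.64e-05). Egfl6 had the opposite difference, 1.17, not called with E18.5 replicates 3 to 5 (adjusted p = 0.102). In whole lung, fewer cells of a type and less RNA per cell cannot be told apart, here and in each list below.

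**Figure D3:**
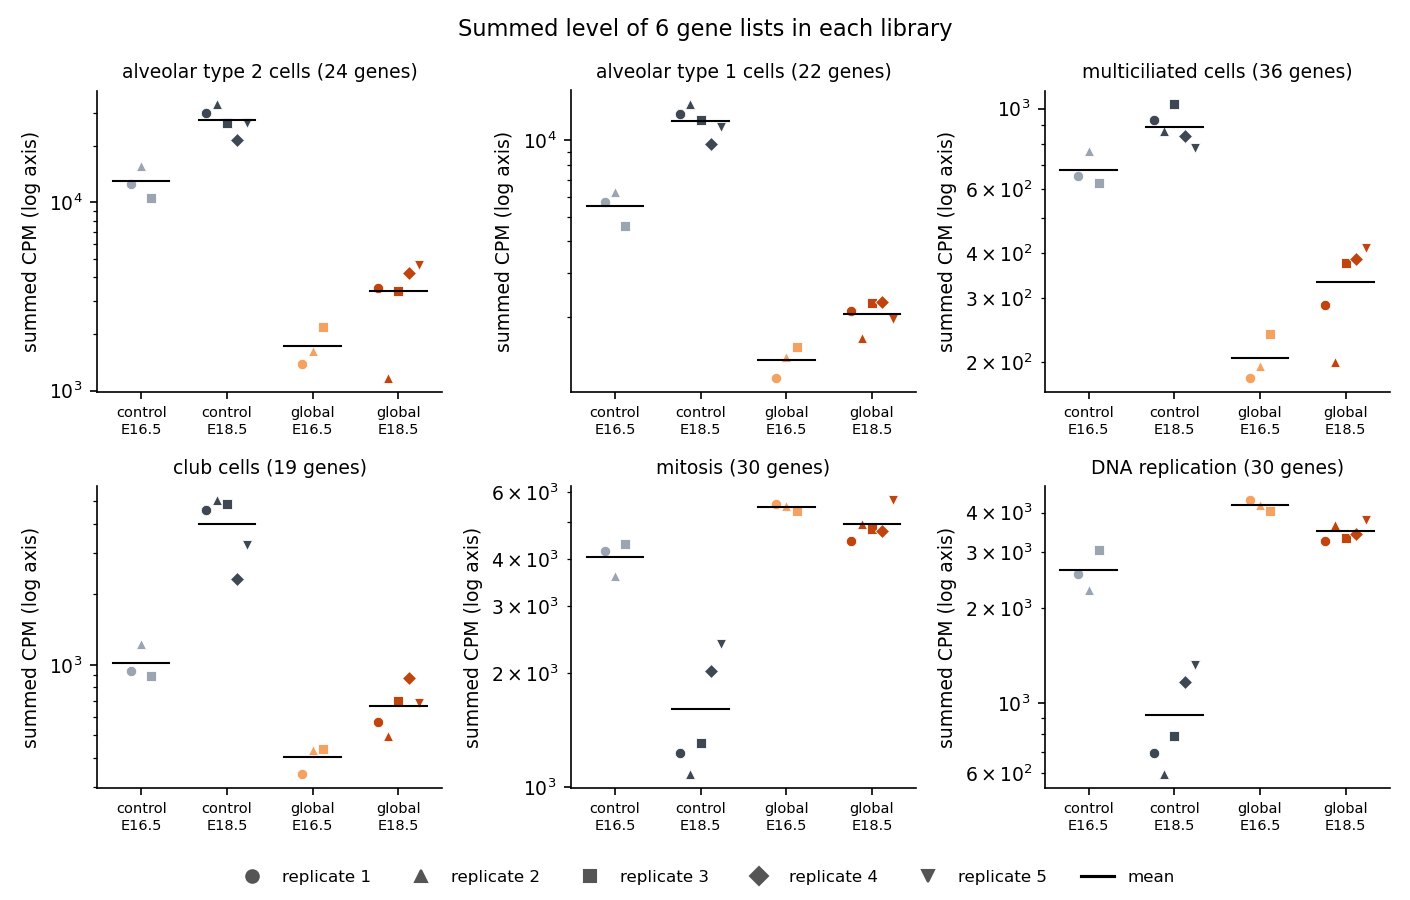
Summed CPM of the genes of 6 lists in each library of the 4 groups, on log axes. The AT2 sum of global lungs goes from 1391 to 2187 CPM at E16.5 to 3374 to 4676 CPM in 4 of the E18.5 libraries, with replicate 2 at 1167 CPM, and lies below every control library (10588 CPM or more); the DNA replication sum is 597 to 1321 CPM in E18.5 controls and goes from 4056 to 4379 CPM at E16.5 to 3254 to 3784 CPM at E18.5 in global lungs.

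AT1 genes rose in global lungs too. Their summed level was 1147 to 1528 CPM at E16.5 and 1655 CPM in E18.5 replicate 2. The other E18.5 global libraries had 1972 to 2298 CPM. Of 22 AT1 genes, 9 rose and none fell, with a median of 0.56. In controls 19 rose and 1 fell, with a median of 1.02. Hopx, a homeodomain protein of AT1 cells (chr5:77086988-77115121, GRCm38), stood at 8.39, 9.81 and 13.8 CPM at E16.5 and at 42.8, 24, 36.7, 52.8 and 42.2 CPM at E18.5. The groups did not overlap, and it rose by 1.90 ± 0.34 (adjusted p = 0.00217) and was called in each of the 8 fits without 1 global library. Its control step was 0.93, and the difference of 0.97 was not called (adjusted p = 0.148). Ager, the receptor that is a classical AT1 marker, rose by 1.58 ± 0.31 (adjusted p = 0.00419), with E18.5 replicate 2 (33.4 CPM) inside the E16.5 range of 23.6 to 38.8 CPM and the others at 92.6 to 122 CPM. The chloride channel genes Clic3 and Clic5 rose by 1.93 and 1.89, the keratin Krt7 by 0.57 ± 0.11, and Emp2, Lmo7, Cldn18 and Gprc5a rose as well.

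The step of other AT1 genes was not called. Rtkn2 stood at 23.8, 24 and 22.7 CPM in E16.5 global lungs and at 27.2, 22, 21.6, 23.1 and 21.7 CPM at E18.5, and controls went from 15.9 ± 0.476 CPM (SD, n = 3) to 181 ± 57.1 CPM (SD, n = 5), a difference of the steps of -3.53. The steps of Scnn1g, Col4a3 and Spock2 were lower than in controls as well, and those of Sema3e and Igfbp2 (2.06) higher; with E18.5 replicates 3 to 5 the differences of Scnn1g (adjusted p = 0.218) and Sema3e (adjusted p = 0.291) were not called. The AT1 count was 5 without E16.5 replicate 2 and 1 without replicate 1.

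Of 16 genes of lung fluid transport, 3 rose and none fell in global lungs, against 9 and none in controls. Scnn1a, the alpha subunit of the epithelial sodium channel that clears lung fluid at birth, stood at 5.25, 7.17 and 7.91 CPM and then at 16.7, 6.12, 18.6, 21.8 and 16.7 CPM, and rose by 1.25 ± 0.32 (adjusted p = 0.0186). The water channel Aqp3 rose by 2.04 ± 0.59 (adjusted p = 0.0351) and the ubiquitin ligase Nedd4l by 0.70 (adjusted p = 0.0438). No member was called without E16.5 replicate 1, E16.5 replicate 2 or E18.5 replicate 4.

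Of 18 genes of the distal tip progenitors of the branching lung, 1 rose and 1 fell in global lungs with a median of -0.16, whereas in controls 1 rose and 11 fell with a median of -0.53, and the step was higher than in controls for 4 genes and lower for none (2 and none with E18.5 replicates 3 to 5, or without E16.5 control replicate 1). The member that rose, Cpm, a membrane carboxypeptidase, went from 28.9, 27.6 and 38.1 CPM to 71.1, 38, 78.1, 79.4 and 75.1 CPM. Its rise of 1.12 ± 0.19 (adjusted p = 0.00149) was larger than in controls (difference 0.85, adjusted p = 0.0262). That difference was called in 17 of 24 alternative fits, and lost without E16.5 replicate 1 or 2 of either genotype. The member that fell was Etv5, an ETS factor downstream of FGF signalling, by 0.47 ± 0.14 (adjusted p = 0.0425). Among 20 transcription factors of lung epithelium, Elf5 (0.83, adjusted p = 0.0223) and Klf5 (0.95, adjusted p = 0.0321) rose, both lost when E16.5 replicate 1 or 2, or E18.5 replicate 3 or 4, was left out, and Nkx2-1, the defining factor of the lung epithelium, had a step of 0.34 that was not called (adjusted p = 0.156).

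Multiciliated cell genes were the list with the largest number of rises in global lungs. Of 36, 20 rose and none fell, with a median of 1.31, and 35 had a positive step. The E16.5 and E18.5 global libraries did not overlap for 4 of the 36 (17.9% of all genes). In controls 6 rose and 1 fell, with a median of 0.50. Rsph1, a radial spoke protein of motile cilia, stood at 0.404, 0.623 and 2.06 CPM at E16.5 and at 3.89, 0.471, 6.26, 6.3 and 6.89 CPM at E18.5, and rose by 2.23 ± 0.50 (adjusted p = 0.00878). Foxj1, the transcription factor that switches on motile cilia genes, stood at 3.79, 8.26 and 12.7 CPM and then at 18.9, 5.09, 31.7, 31.8 and 20.3 CPM, and rose by 1.40 ± 0.40 (adjusted p = 0.0343). In both, E18.5 replicate 2 lay inside the E16.5 range and the other 4 above it. Dnali1, a dynein light chain, rose by 2.92, and the tektins Tekt1, Tekt2 and Tekt4, the dynein heavy chains Dnah5 and Dnah9, and Ccno, a regulator of centriole amplification, were among the others that rose. The summed level went from 181, 195 and 239 CPM to 287, 201, 375, 386 and 413 CPM, below the control range of 623 to 1029 CPM in every library.

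The multiciliated count varied with the libraries and the fit. It was 28 with E18.5 replicates 3 to 5 and 27 without E18.5 replicate 2, but 0 without E16.5 replicate 1 and 2 without E16.5 replicate 2. It was 10, 9 and 12 without E18.5 replicate 3, 4 or 5, and 4 when the spread was estimated from the compared groups alone. The step was higher than in controls for 6 members, Mcidas, Ccno, Deup1, Cdc20b, Tekt4 and Lrrc23, and lower for Cfap43 (-0.66). That count of 6 was 9 with E18.5 replicates 3 to 5, 0 with replicates 1 and 2, and 3 without E16.5 control replicate 2 or 3 or E18.5 control replicate 2. The first 4 of these act in the amplification of centrioles before cilia form. Deup1, for example, had a positive step in global lungs (1.60, adjusted p = 0.0589) and a negative one in controls (-0.83, adjusted p = 0.142), neither called, with a difference of 2.43 (adjusted p = 0.019). Mcidas had 1.25 (adjusted p = 0.093) and -0.90 (adjusted p = 0.0738), with a difference of 2.15 (adjusted p = 0.019). For Cdc20b the difference of 2.49 (adjusted p = 0.0494) was called in 6 of 24 alternative fits. It was not called with E18.5 replicates 3 to 5 (adjusted p = 0.0585). Tekt4, whose promoter is printed above, stood at 0, 0.467 and 0.907 CPM and then at 2.06, 0.471, 3.5, 4.91 and 4.4 CPM. Its rise was 2.75 ± 0.60 and its difference 2.38 (adjusted p = 0.0366), the latter called in 13 of 24 alternative fits.

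Club cell genes, the secretory programme of the airways, rose in both genotypes. Of 18, 8 rose and none fell in global lungs with a median of 1.38, and 15 rose and 1 fell in controls with a median of 1.83. Cbr2, a carbonyl reductase of club cells, stood at 1.29, 6.54 and 9.89 CPM and then at 35.2, 18.1, 41.5, 77.8 and 56.9 CPM, and rose by 2.97 ± 0.52 (adjusted p = 0.00217). Scgb1a1, the main secretoglobin of club cells, stood at 0.0807, 0.467 and 0.412 CPM and then at 5.61, 0.283, 7.75, 9.81 and 9.53 CPM, and rose by 4.36 (adjusted p = 0.0127). Control means of Scgb1a1 were 31.2 CPM at E16.5 and 734 CPM at E18.5, so every global library lay below the E16.5 control mean. Scgb3a2, Aldh1a1, Cyp4b1, Sec14l3, Lypd2 and Selenbp1 also rose. The count was 1 without E16.5 replicate 1 and 3 without replicate 2. Of 16 neuroendocrine cell genes none was called in global lungs in any setting, and in controls 2 rose and 3 fell.

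Genes of cell division fell in control lungs by more than in global lungs. All 30 mitosis genes and all 30 DNA replication genes fell in controls, with medians of -1.37 and -1.54. In global lungs none of the mitosis genes was called (median -0.15, range -0.30 to -0.01, and 0 at an unadjusted p under 0.05), and 1 replication gene, Pcna, fell (median -0.31, range -0.53 to -0.03). The difference of the steps was called for all 30 of both lists, and for 26 and 27 of 30 with E18.5 replicates 3 to 5, that is without the control replicates 1 and 2 that stood apart. The background of such higher steps over all genes was 7.04%.

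Top2a, the topoisomerase that untangles chromosomes in mitosis (chr11:98992943-99024189, GRCm38), stood at 725, 728 and 679 CPM in E16.5 global lungs and at 549, 629, 606, 599 and 773 CPM at E18.5. The groups overlapped, and the step of -0.17 ± 0.19 was not called (adjusted p = 0.653). Controls went from 495 ± 54.8 CPM (SD, n = 3) to 178 ± 71.5 CPM (SD, n = 5), a fall of 1.47 on the log2 scale (adjusted p = 7.15e-07), and the difference of the steps was 1.30 ± 0.27 (adjusted p = 0.00256). Mki67, the proliferation antigen, had a global step of -0.20 (adjusted p = 0.571) and a difference of 1.142 (adjusted p = 0.00477). Mcm6, a subunit of the replicative helicase (chr1:128331590-128359664, GRCm38), stood at 344, 326 and 294 CPM and then at 293, 326, 298, 312 and 335 CPM, a step of -0.04 ± 0.16 (adjusted p = 0.921). Its control mean went from 220 to 85.4 CPM, and its difference was 1.32 (adjusted p = 0.000442).

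Replication genes stood slightly lower at E18.5 than at E16.5 in global lungs. Their summed level was 4379, 4222 and 4056 CPM at E16.5 and 3254, 3656, 3332, 3431 and 3784 CPM at E18.5, without overlap, and 15 of the 30 genes had libraries that did not overlap (17.9% of all genes). Pcna, the sliding clamp of DNA polymerase, fell by 0.53 ± 0.15 (adjusted p = 0.0343), from 186, 184 and 180 CPM to 103, 130, 114, 122 and 164 CPM. It was called in 2 of the 8 fits without 1 global library, and not with total-count scaling or with E18.5 replicates 3 to 5. When the spread was estimated from the compared groups alone, 10 replication genes and 1 mitosis gene were called lower.

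Of 14 inhibitors and brakes of the cell cycle, 7 rose and 2 fell in controls (median 0.34). The step was higher in global lungs for 2 genes and lower for 3 (1 and none with E18.5 replicates 3 to 5). In global lungs 4 rose and none fell (median 0.29): Cdkn2b, Rb1, Cdkn2d and Gadd45g. Cdkn2b, an inhibitor of CDK4 and CDK6, stood at 0.323, 0.623 and 0.495 CPM and then at 2.63, 1.22, 1.71, 3.37 and 1.39 CPM, without overlap, and rose by 2.08 ± 0.47 (adjusted p = 0.00878). Rb1 rose by 0.45 (adjusted p = 0.0203). Cdkn1c, the imprinted CDK inhibitor p57, had a step of 0.25 in global lungs (adjusted p = 0.242), a fall of 0.46 in controls (adjusted p = 0.00492) and a difference of 0.71 (adjusted p = 0.00992), not called with E18.5 replicates 3 to 5 (0.629, adjusted p = 0.0849). None of the 14 was called in global lungs without E16.5 global replicate 1.

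**Figure D4:**
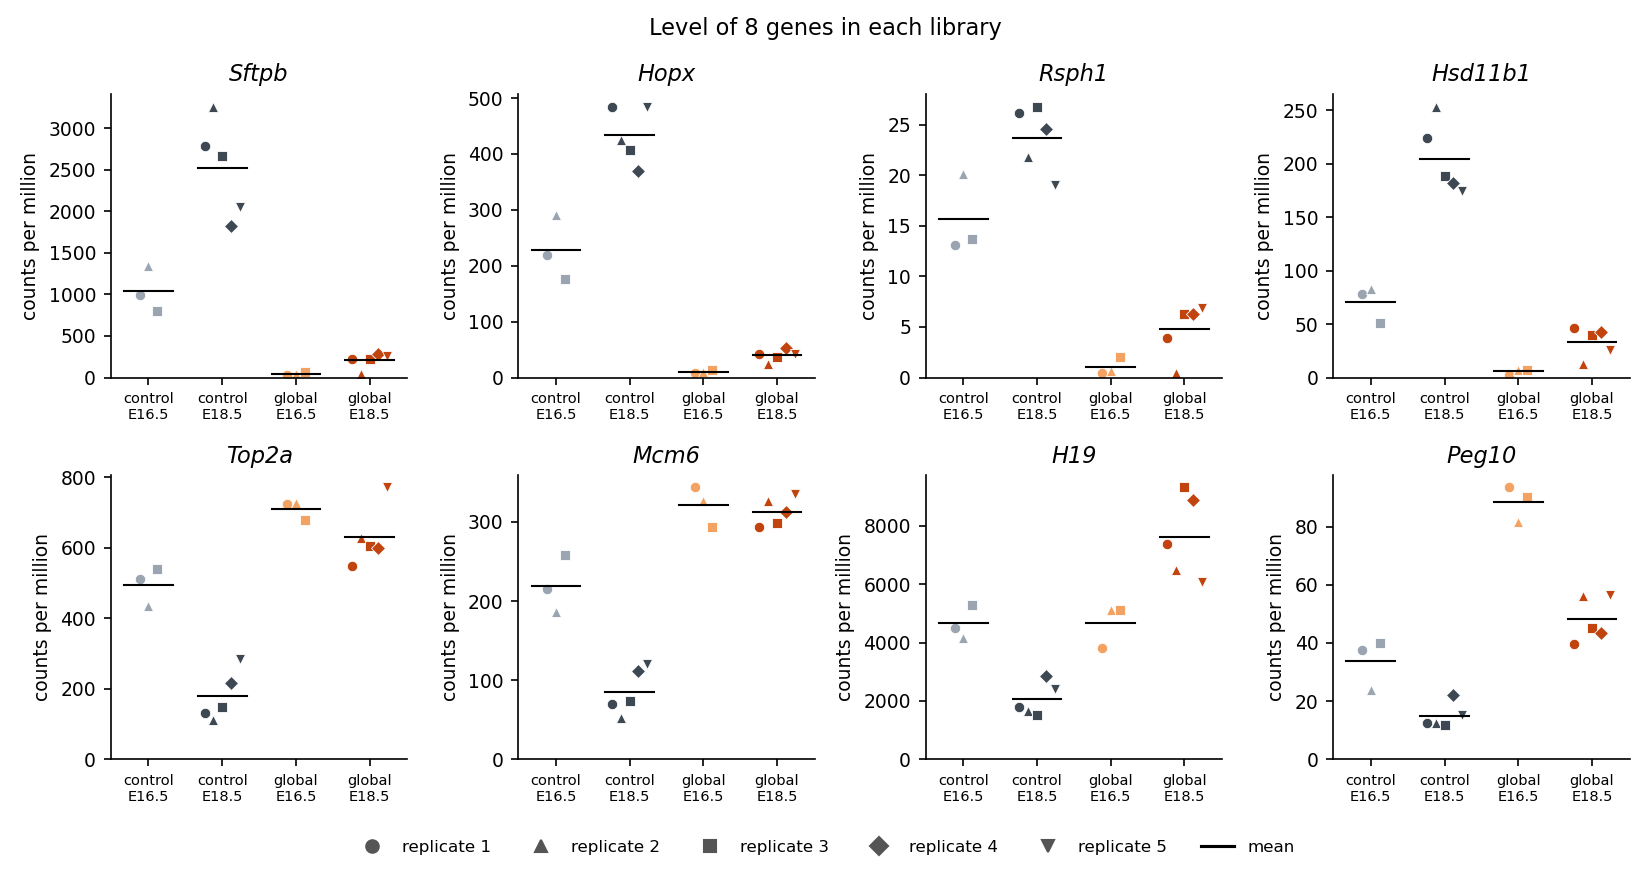
CPM of 8 genes in each library of the 4 groups, with group means. Sftpb, Hopx, Rsph1 and Hsd11b1 are higher in most E18.5 global libraries than at E16.5, with Sftpb and Rsph1 of replicate 2 (38.9 and 0.471 CPM) at the E16.5 level; Top2a and Mcm6 overlap between the global groups and drop in controls; H19 goes up in global lungs (3813 to 5128, then 6081 to 9346 CPM) and down in controls; Peg10 goes down in global lungs.

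Of 40 let-7 targets, none rose and 5 fell in global lungs (median -0.21, 9 with a positive step), and 5 rose and 18 fell in controls (median -0.32). Igf2bp3, which binds and stabilises growth-related transcripts, stood at 104, 94.6 and 90.5 CPM and then at 72.5, 77.3, 80.3, 66.6 and 71.8 CPM, without overlap, a fall of 0.38 ± 0.10 (adjusted p = 0.0184). Ccnd1, the G1 cyclin, fell by 0.41 ± 0.09 (adjusted p = 0.00878) from 347, 320 and 296 CPM to 250, 281, 248, 231 and 203 CPM. Igdcc3 fell by 0.60 (adjusted p = 0.0475), Irs2, an adaptor of the insulin receptor, by 0.64 (adjusted p = 0.0397), and Peg10 by 0.88 (adjusted p = 0.00576). Hmga2 stood at 279, 281 and 241 CPM and then at 203, 261.1, 210, 195 and 188 CPM, a step of -0.34 ± 0.15 that was not called (adjusted p = 0.193). Its control means were 33.7 and 18.3 CPM, a fall of 0.89 (adjusted p = 0.000102), so every global library lay above the control mean at both stages.

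The count of let-7 targets that fell was 2 without E16.5 replicate 2 and 0 without replicate 1. Members of the list were split by the site printed above. Those with a CTACCTC in the annotated 3' end numbered 32, with a median step of -0.21, and the 8 without one had a median of -0.25. Ccnd1 and Peg10 had 0 such sites, Igf2bp3 and Irs2 1, Igdcc3 2 and Hmga2 4. Over all tested genes with an annotated 3' end, the median step was 0.004398 for 13406 genes without the site, -0.01619 for 1538 with 1 and -0.05572 for 237 with 2 or more. Lin28b, with 4 sites, stood at 4.44, 2.73 and 3.13 CPM and then at 1.49, 3.01, 0.522, 1.32 and 3.15 CPM, a step of -0.85 ± 0.38 that was not called (adjusted p = 0.184).

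Insulin-like growth factor signalling and imprinted growth genes had few calls in global lungs, where 4.27% of all genes were called higher and 1.86% lower. In controls these shares over all genes were 17.1% and 19.1%. Of 16 IGF pathway genes, Igfbp7, a secreted binding protein, rose by 1.08 (adjusted p = 0.0364), and the adaptors Irs1 (by 0.62, adjusted p = 0.0239) and Irs2 fell. Igf2, the fetal growth factor, had a step of -0.45 (adjusted p = 0.308). Of 20 imprinted genes, H19 rose and Peg10 and Magel2 fell in global lungs, whereas 2 rose and 10 fell in controls. H19, the maternally expressed noncoding RNA beside Igf2 (chr7:142575529-142578143, GRCm38), stood at 3813, 5128 and 5119 CPM at E16.5 and at 7388, 6479, 9346, 8881 and 6081 CPM at E18.5, and rose by 0.70 ± 0.19 (adjusted p = 0.0252). In controls its mean went from 4655 to 2050 CPM, a fall of 1.18 (adjusted p = 8.8e-06). The difference of the steps, 1.89 ± 0.27, was called (adjusted p = 6.94e-05) in the main fit and in every alternative tried, although the rise in global lungs itself was called in 4 of the 8 fits without 1 global library. Peg10, a paternally expressed gene of retroviral origin, stood at 93.6, 81.5 and 90.3 CPM and then at 39.6, 56.1, 45.3, 43.5 and 56.5 CPM.

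Of 23 Hox genes, which set position along the body axis, 5 fell and none rose in global lungs (median -0.41), and 1 rose and 3 fell in controls (none and 1 with E18.5 replicates 3 to 5, and 1 fell without E16.5 control replicate 3). Hoxb5, a regulator of lung branching, stood at 105.3, 91.4 and 91.7 CPM and then at 57.7, 68.4, 49.6, 50.1 and 55.2 CPM, without overlap, and fell by 0.78 ± 0.17 (adjusted p = 0.00742). Hoxa4 fell by 0.69 (adjusted p = 0.0239), Hoxb3 by 0.53, Hoxb4 by 0.41 and Hoxb6 by 0.63, while Hoxa5 had a step of -0.22 (adjusted p = 0.415). The count was 6 without E18.5 replicate 2 or 5, 2 without E16.5 replicate 2 or 3, and 0 without E16.5 replicate 1.

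In the mesenchyme, 4 of 21 fibroblast genes rose and 1 fell in global lungs (median 0.21), against 10 and none in controls (median 0.36). Mfap4, an elastic fibre protein, stood at 739, 1027 and 847 CPM and then at 1941, 1292, 1747, 1942 and 1255 CPM, without overlap, and rose by 0.91 ± 0.15 (adjusted p = 0.00182), a call kept in each fit without 1 global library. Tcf21, a transcription factor of lung fibroblasts, rose by 0.51 (adjusted p = 0.00449), and G0s2 and the epithelial growth factor gene Fgf7 rose as well. Tbx5, a T-box factor of lung mesenchyme, fell by 0.38 (adjusted p = 0.035). Of 20 smooth muscle genes, 2 rose and 5 fell in controls (median -0.002), and 2 and 3 with E18.5 replicates 3 to 5. In global lungs all 20 had a negative step, and 3 fell (median -0.32). Actc1 and Ckm of this list also stand in the cardiomyocyte and skeletal muscle lists. Myocd, the coactivator that drives smooth muscle genes, stood at 27.1, 20.7 and 13.1 CPM and then at 8.92, 9.8, 7.9, 6.74 and 7.63 CPM, and fell by 1.31 ± 0.25 (adjusted p = 0.00384). Cald1 (by 0.40, adjusted p = 0.022) and Synpo2 (by 0.56) fell too, and Acta2, smooth muscle actin, had a step of -0.12 (adjusted p = 0.681). No smooth muscle gene was called in global lungs without E16.5 global replicate 1. Of 25 matrix genes, Mfap4 rose and the collagen cross-linking enzyme Loxl2 fell by 0.58 (adjusted p = 0.0101). Over all genes 4.27% were called higher and 1.86% lower in global lungs.

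Endothelial genes had 1 call in global lungs. Of 25 endothelial genes, 16 rose and 1 fell in controls (median 0.56). In global lungs 1 rose and none fell (median 0.20), near the 4.27% of all genes called higher there. The riser, Gpihbp1, which carries lipoprotein lipase to the capillary surface, stood at 3.63, 6.7 and 7.5 CPM and then at 16.9, 14.2, 26.9, 21.1 and 11.5 CPM, without overlap, and rose by 1.61 ± 0.28 (adjusted p = 0.00217), beside 1.33 in controls. Kdr, a VEGF receptor, stood at 202, 197 and 202 CPM and then at 187, 178, 181, 172 and 208 CPM. Its step of -0.11 was not called (adjusted p = 0.501), it rose by 0.55 in controls, and the difference of -0.66 was called (adjusted p = 0.00122). Of 11 genes of aerocytes, the capillary cells of gas exchange, 3 rose (Emp2, Cyp4b1 and Fibin), 2 of which stand in epithelial lists too, and the difference of the steps was lower for 6. Car4, a carbonic anhydrase of those capillaries, stood at 0.156 to 0.824 CPM in E16.5 and 0.659 to 1.42 CPM in E18.5 global lungs, while its control mean went from 0.937 to 35.6 CPM (difference -3.93, adjusted p = 0.0273, not called with E18.5 replicates 3 to 5, adjusted p = 0.0905). Of 13 pericyte genes Higd1b (1.34) and Ndufa4l2 (1.35) rose. Of 12 mesothelial genes, 2 rose and none fell in global lungs, with a median step of -0.20 and 4 positive steps. In controls 6 rose and none fell (median 0.66). The difference of the steps was lower for 3 of the 12 (1 with E18.5 replicates 3 to 5). Msln, the defining surface protein of mesothelium, rose in global lungs by 2.20 ± 0.42 (adjusted p = 0.00366). It went from 2.02, 6.23 and 12.4 CPM to 29.7, 14.4, 33.9, 43.9 and 35 CPM, and the keratin Krt19 rose by 0.84.

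**Figure D5:**
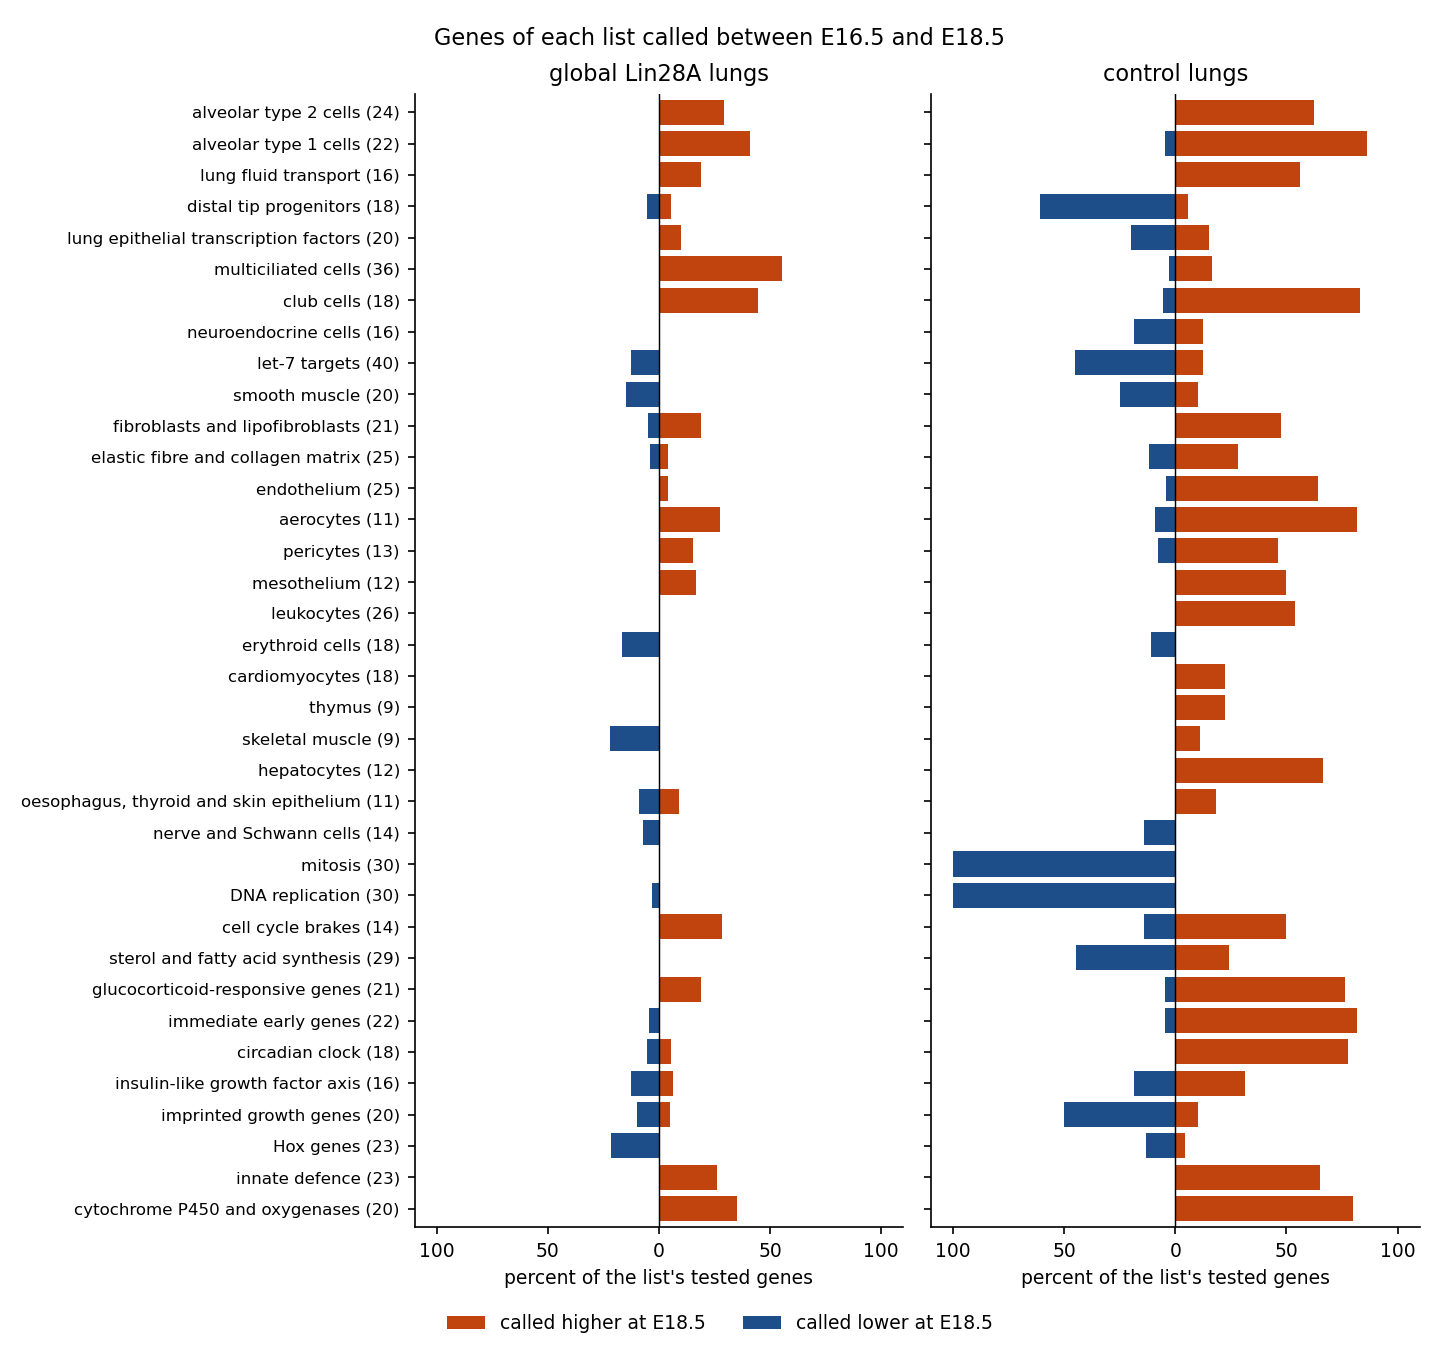
Percent of the genes of each of 36 lists called higher or lower from E16.5 to E18.5, in global lungs in one panel and in control lungs in the other. Multiciliated cell genes have the most rises in global lungs (20 of 36), mitosis and DNA replication genes fall in full in controls (30 of 30 each) and in 0 and 1 of 30 in global lungs, and leukocyte and neuroendocrine genes have no call in global lungs.

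Of 26 leukocyte genes, none was called in global lungs (median 0.13, with summed levels of 208 to 245 CPM and then 203 to 274 CPM), and in controls 14 rose (median 0.57, from 402 to 469 CPM to 694 to 1307 CPM). With E18.5 replicates 3 to 5 the control count was 5 (median 0.47), and it was 6, 7 or 8 without E16.5 control replicate 1, E16.5 control replicate 3 or E18.5 control replicate 2. Ptprc, the common leukocyte antigen CD45, stood at 3.71 to 3.79 CPM and then at 2.57 to 4.55 CPM. Genes of innate defence, many of them made by epithelium, had calls: 6 of 23 rose, none fell and all 23 had a positive step (median 1.01), beside 15 rises in controls (median 1.77). Ifitm3, an antiviral membrane protein, stood at 22.1, 25.8 and 26.3 CPM and then at 62.2, 37.6, 51.7, 69 and 47.5 CPM, and rose by 1.12 ± 0.19 (adjusted p = 0.00217). Wfdc2, an antiprotease of the airway, stood at 65.2, 78.2 and 97.5 CPM and then at 128, 106, 175, 196 and 183 CPM. It rose by 0.97 ± 0.17, by more than in controls (difference 0.80, adjusted p = 0.0235, called in 18 of 24 alternative fits). Neither gene's groups overlapped, and the rises of both were called in each fit without 1 global library. Sftpa1, Sftpd, Lyz1 and Cxcl15 were the other risers, and the count was 2 without E16.5 replicate 1.

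Of 20 genes of xenobiotic metabolism (cytochromes P450 and partners), 7 rose and none fell in global lungs (median 0.66), and 16 rose in controls (median 1.32). Fmo2, the lung flavin monooxygenase, stood at 5.73, 8.18 and 9.89 CPM and then at 66.4, 12.8, 42.1, 44.2 and 30.6 CPM, without overlap, and rose by 2.30 ± 0.41 (adjusted p = 0.00217). Cyp2s1 rose by 1.47 (adjusted p = 0.00419), and Gstm2, Ephx1, Cyp4b1, Gsta4 and Aldh1a1 rose as well. Fmo2 kept its call in each fit without 1 global library, and the list count was 1 without E16.5 replicate 1.

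Glucocorticoid, which surges before birth and matures the lung, induces a set of genes of which 4 of 21 rose in global lungs (median 0.59) and 16 rose and 1 fell in controls (median 1.45). They were Hsd11b1, described above, the sulfotransferase Sult1a1 (1.75, adjusted p = 0.00918), the transporter Slc10a6 (1.62) and the metallothionein Mt1 (1.59, adjusted p = 0.0257). The receptor gene Nr3c1 had a step of 0.22 (adjusted p = 0.151). Fkbp5, a feedback target of the receptor, had -0.04 in global lungs (adjusted p = 0.937) and rose by 0.69 in controls, and Zbtb16 had 0.94 (adjusted p = 0.205) and rose by 1.93 in controls. The difference of the steps was lower for 6 of the 21. With E18.5 replicates 3 to 5, 12 rose and none fell in controls (median 1.16), and the difference was lower for 4. The count of rises in global lungs was 1 without E16.5 global replicate 1.

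Immediate early genes are switched on within minutes by stimuli, handling of tissue included. In global lungs 1 of 22, Myc, fell and none rose (median 0.02), and their summed level was 566 to 816 CPM in all 8 libraries. In controls 18 rose and 1 fell (median 2.24), and 7 rose and 1 fell with E18.5 replicates 3 to 5 (median 0.54). The step was lower than in controls for 14 genes, for 4 with E18.5 replicates 3 to 5, and for 6 or 7 without any 1 of the E16.5 controls or E18.5 control replicates 1 and 2. Myc, which drives growth and division, stood at 70.7, 61.7 and 63.2 CPM and then at 38.8, 44.3, 37.9, 35 and 45.9 CPM, without overlap, and fell by 0.69 ± 0.14 (adjusted p = 0.00552). Of 18 circadian clock genes, Tef rose by 0.34 (adjusted p = 0.0457) and Nr1d2 fell in global lungs, whereas 14 rose and none fell in controls (9 with E18.5 replicates 3 to 5 or without E16.5 control replicate 3). Nr1d2, a nuclear receptor that represses clock genes, stood at 17.3, 16.9 and 16.48 CPM and then at 9.61, 12.2, 10.7, 10.6 and 12.9 CPM, a fall of 0.59 ± 0.13 (adjusted p = 0.00759), and rose by 0.39 in controls (difference -0.98, adjusted p = 0.00111). Time of day at collection is not given in the labels. Of 29 genes of sterol and fatty acid synthesis none was called in global lungs, and 7 rose and 13 fell in controls.

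Blood and neighbouring tissues were followed through their own lists. Of 18 erythroid genes 3 fell in global lungs, Hbb-y and Hba-x among them (median -1.001), and 2 fell in controls (median -0.64; 5 with E18.5 replicates 3 to 5). Their summed level was 3718, 4206 and 4553 CPM and then 3434, 2052, 1513, 2312 and 1495 CPM, and the adult globin Hba-a1 had a step of -1.15 (adjusted p = 0.104). Of 9 skeletal muscle genes, Myh8 and Myog fell. Myog, the myogenic factor, had 28 counts in the E16.5 global libraries together and 2 at E18.5, a ratio of 22.5 (95% exact interval of the counts 5.68 to 195). The summed muscle level was 15.7, 75.2 and 38.8 CPM and then 14.9 to 19.3 CPM, and no member was called without E16.5 replicate 1. No gene of the cardiomyocyte (18), thymus (9) or hepatocyte (12) lists was called in global lungs. The heart myosin Myh6 stood at 2.42, 28.7 and 50.1 CPM at E16.5 and at 18.47 to 35 CPM at E18.5, and the liver protein Alb at 23.4, 16.7 and 4.95 CPM and then at 6.64, 32.1, 0.746, 1.24 and 1.83 CPM. Among 11 genes of oesophagus, skin and thyroid Krt15, also a keratin of airway basal cells, rose by 1.73 and Lor fell, and among 14 nerve genes Sox10, of glial cells, fell by 1.63 (adjusted p = 0.0424). In controls 8 hepatocyte genes rose and none fell, and 1 rose and 5 fell with E18.5 replicates 3 to 5. Their summed level was 1283 CPM in E18.5 control replicate 1 and 35.9 to 147 CPM in the other E18.5 controls. Cardiomyocyte genes summed to 1344 CPM in E18.5 control replicate 3 and to 344 to 624 CPM in the others. The part of blood and neighbouring tissues in the results was not tested.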

How the data were processed

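Poly(A) RNA-seq had been made from embryonic lungs with in-house libraries, per the labels' protocols. The authors deposited 1 raw count per Ensembl gene and library for 21789 genes. STAR 2.4.2a, HTSeq 0.6.1p1, bcl2fastq 2.17.1.14, DESeq2 1.10.1, cutadapt and the build GRCm38 stand in the submitters' processing notes; their roles, the annotation release and the strand setting are not given in the sources used here, so overlapping and antisense genes may share reads. Every deposited row reached 6 counts in at least 1 library, and 21762 identifiers were found in GENCODE vM21, from which gene coordinates come. Library totals ran from 7147301 to 17624884 counts.

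Counts of all 34 libraries were fitted as 10 group means with edgeR 4.0.16 in R 4.3.3 (filterByExpr, TMM, quasi-likelihood F test), leaving 24 residual degrees of freedom and a common biological coefficient of variation of 0.172. There were 3 comparisons over 18319 genes: the step from E16.5 to E18.5 in global lungs, the same in controls, and their difference. Benjamini-Hochberg adjustment was done within each, and genes were called at an adjusted p under 0.05. The script was tested on simulated data. Named genes were the 12 largest rises and falls under the rule given in the text, the 3 called members of lowest p and the uncalled member of highest mean CPM in each of 36 lists, and the 6 largest differences of the steps in each direction; other called list members are named with fewer values, and a few genes that these rules chose are not reported here. The members and lists were chosen with earlier results of these data known. Exact binomial intervals are given for genes with 3 or fewer counts in a group. Alternatives were other scalings (size factors, total counts), no low-count filter, fits of the compared groups alone with and without a replicate block, E18.5 replicates 1 and 2 or 3 to 5 only, each library left out, and DESeq2 1.42.0.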

Additional observations from a re-analysis of the deposited data

Results flagged for a closer look

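For 26 of 168 sets of 5 E18.5 global values, the highest or lowest library lay apart from the other 4 by more than Dixon's 95% critical value of 0.71, measured as the gap to the nearest library over the whole range; chance flags about 1 in 20. E18.5 replicate 2 was the lowest for 13 of them. These were Sftpa1 (0.87), Sftpb (0.881), Ctsh (0.789), Sftpc (0.844), Cav1 (0.775), Scnn1a (0.789), Cpm (0.85), Elf5 (0.823), Rsph1 (0.77), Lyz2 (0.755), Sult1a1 (0.723), Slc15a1 (0.727) and the summed AT2 genes (0.765). It was the highest for Grb10 (0.719). Most of these are genes of maturing epithelium, and the library's correlation with the E16.5 group is given in the report; what set it apart was not tested. E18.5 replicate 5 was the lowest for Erbb3 (0.793), Cdkn1c (0.753) and Hoxa4 (0.929), and for the summed lists of epithelial transcription factors (0.711), nerve (0.812), sterol and fatty acid synthesis (0.853) and immediate early genes (0.83). Replicate 1 was the highest for Piezo2 (0.768) and Macf1 (0.724) and the lowest for Hba-x (0.777), replicate 3 the lowest for Grap2 (0.866), and replicate 4 the highest for Rasgrf2 (0.731).

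The step from E16.5 to E18.5 differed between global and control lungs, by edgeR's test of the difference, for 36 named genes. Among them are the 6 largest differences in each direction, named because the difference was called. The 36 can therefore not be set against the 10.7% of all genes called for it. Higher in global lungs were the cell division genes Top2a (1.30), Pcna (1.00) and Mcm6 (1.32), the imprinted genes H19 (1.89), Cdkn1c (0.71) and Grb10 (0.69), the cilia genes Tekt4 (2.38), Stk33 (1.96) and Rsph14 (3.53), and the epithelial genes Tmem213 (2.67), Cpm (0.85), Lypd2 (1.75), Wfdc2 (0.80) and Aldh1a7 (0.73). Rsph14 had 1 count in the E16.5 global libraries and 61 at E18.5. Among the largest such differences were also Ibsp (4.22), Crh (3.65), Kif12 (3.48), H60b (3.37) and Slc15a1 (3.03).

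Lower in global lungs were the immediate early genes Fos (-6.29), Atf3 (-6.22) and Jun (-2.53), of which Fos stood at 1221 and 1687 CPM in E18.5 control replicates 1 and 2 and at 16 to 30.1 CPM in the other 3. Pon1 had 3 counts in the E16.5 and 6 in the E18.5 global libraries. Lower too were Pon1 (-6.03), Acan (-5.63), Marco (-4.64), Rasgrf2 (-4.53), Myh8 (-4.40), Lor (-2.89), Apba2 (-1.68), Lyz2 (-1.56), Nr1d2 (-0.98), Selenbp1 (-0.75), Macf1 (-0.55), Piezo2 (-0.52), Hoxb4 (-0.52) and Tef (-0.50). The difference was called in all 24 fits tried for Top2a, Pcna, Mcm6, H19, Jun, Nr1d2, Macf1, Ibsp, Crh, Kif12 and Rasgrf2. It was called in 7 of 24 for H60b, 8 of 22 for Acan, 10 of 24 for Stk33, Myh8, Selenbp1 and Hoxb4, and 11 of 24 for Aldh1a7. The number was 13 of 24 for Tekt4, 14 for Lypd2, 16 for Slc15a1, 17 for Cpm and 18 for Wfdc2, Rsph14 and Piezo2. With E18.5 replicates 3 to 5 it was not called for Fos, Atf3, Cdkn1c, Grb10, Lyz2, Lor, Tef, Slc15a1, Marco, H60b, Acan, Myh8, Selenbp1, Hoxb4 or Aldh1a7.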

How the results depend on the processing

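The direction of the 1123 calls in global lungs held for at least 1081 of them in every edgeR setting, but their number did not. It was 1804 with E18.5 replicates 3 to 5 and 41 with E18.5 replicates 1 and 2, and 57 to 1469 when 1 global library was left out. The difference of the steps was called for 847 genes with replicates 3 to 5, and for 990 (without E16.5 control replicate 3) to 2621 when 1 library was left out. The 109 distinct list genes called became 4 with E18.5 replicates 1 and 2 and 9 to 140 when 1 library was left out. The share of control-step genes called in the same direction in global lungs, 9.87%, became 17.9% with replicates 3 to 5, 0.384% with replicates 1 and 2, and 0.627% to 13.4% when 1 library was left out. The cause was not tested. Scaling to total counts moved the share of higher calls from 47.2% to 37.1% in controls and from 65.9% to 78.2% for the difference, whose median over all genes it moved from 0.058 to 0.152. Same-numbered libraries did not deviate together (r from -0.0421 to 0.0587 in global and from 0.00798 to 0.17 in control lungs), so the replicate numbers were not taken to pair the samples; the fit with the replicate block called 1401 genes in global lungs, 764 higher and 637 lower. DESeq2 called 1567 in global lungs.

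Of the values of named genes under these alternatives, 2430 kept direction and side of the threshold, 482 lost the call, 27 gained it and 19 changed sign. Those that changed sign, on the log2 scale, were mostly near 0. Tbx2 became 0.0776 with the replicate block and 0.140 with replicates 1 and 2, Igfbp5 0.131 and 0.159, with -0.249 to 0.00775 without 1 library. With replicates 1 and 2, Piezo2 became 0.0271, Alb 0.384 and Marco -0.0235. With replicates 3 to 5, Lck became -0.0479 and Kif12 -0.228. Without 1 library, Lck reached -0.0130, Kif12 ran from -0.123 to 0.142, Mcm6 from -0.0984 to 0.0143, Pon1 from -0.226 to 1.12 and Marco from -0.181 to 0.340. Depth limits genes near 1 CPM, where a library holds about 9 to 13 counts.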

Other observations

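The gene groups here were chosen after their values were seen, so their counts are descriptions. Interferon-induced genes stood out beside the rises of Ifi44 and Oasl2. Of 31, 29 could be tested, and 18 rose and none fell in global lungs (median 1.70), beside 24 rises in controls (median 1.47), and the difference of the steps was called for none. Oas1b, an antiviral RNA sensor, stood at 0.807, 0.545 and 0.907 CPM at E16.5 and at 3.32, 0.942, 4.4, 4.91 and 2.71 CPM at E18.5, a rise of 2.11 (adjusted p = 0.00244). Irf7, the factor that amplifies the interferon response, had 0.968, 0.779 and 0.742 CPM and then 6.52, 1.41, 2.54, 7.03 and 1.17 CPM, a rise of 2.14 (adjusted p = 0.0138), without overlap and with wide spread at E18.5. Bst2, a tether of budding viruses, rose by 1.20 from 6.05, 7.55 and 6.51 CPM to 21.6, 12.6, 14.8, 19 and 9.17 CPM. Rsad2, an antiviral enzyme, had a step of 0.17 that was not called (adjusted p = 0.87). The count was 21 with E18.5 replicates 3 to 5, 11 without E18.5 replicate 4, 8 without E16.5 replicate 2 and 3 without E16.5 replicate 1.

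Of 26 Wnt pathway genes, 6 fell and none rose in global lungs (median -0.24), against 4 falls and 4 rises in controls, and the difference of the steps was lower for 6 and higher for 1. Axin2, the feedback target that reports Wnt activity, stood at 82.7, 64.6 and 75.4 CPM and then at 50.2, 55.4, 51.1, 44.5 and 47.8 CPM, a fall of 0.58 (adjusted p = 0.0137), lower than in controls (difference -0.77, adjusted p = 0.0133). Lef1, a transcription factor of the pathway, stood at 25.3, 20.2 and 25.9 CPM and then at 12.2, 13.8, 12, 9.59 and 13.6 CPM, a fall of 0.96 (adjusted p = 0.0049). In neither gene did the groups overlap. Sfrp1, a secreted Wnt antagonist, fell by 0.87, and Fzd1, Fzd7 and Tcf7 fell as well. Of 12 hedgehog pathway genes, Gli2 (by 0.76, adjusted p = 0.00564) and Gli3 (by 0.48, adjusted p = 0.0201) fell, beside 7 falls in controls, where Gli3 fell by more (difference 0.90, adjusted p = 0.00194; adjusted p = 0.0504 with E18.5 replicates 3 to 5). No Wnt or hedgehog gene was called without E16.5 replicate 1.

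Of 13 mitochondrially encoded protein genes, 7 could be tested, and mt-Nd5, mt-Nd6 and mt-Nd1 fell in global lungs, beside 6 falls in controls. mt-Nd5 stood at 3026, 2384 and 2563 CPM and then at 852, 996, 1489, 1411 and 1629 CPM, a fall of 1.06 (adjusted p = 0.00528), and none was called without E16.5 replicate 1.

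Both genotypes were called in opposite directions for 18 genes, H19 and Nr1d2 among them. Cdh16, a cadherin of kidney and lung epithelium, stood at 73.4, 77.2 and 83.5 CPM and then at 141, 109, 150, 144 and 120 CPM, a rise of 0.77 (adjusted p = 0.00244) where controls fell by 0.64 (difference 1.41, adjusted p = 5.23e-05), and it was called in each of the 8 fits without 1 global library. Ntn1, a guidance cue, fell by 1.05 (adjusted p = 0.0157) from 73.5, 58.7 and 43.7 CPM to 35.4, 40.4, 29.9, 22.2 and 14.2 CPM and rose by 0.77 in controls. The integrin Itgb3 fell by 0.85 (adjusted p = 0.0193) and rose by 0.98 in controls (difference -1.82). Zfp990, a zinc finger gene, had 0 counts in the 3 E16.5 global libraries and 13.6, 17.3, 0, 13.2 and 12.4 CPM at E18.5, on average at least 135-fold higher than the floor of 3 counts over the E16.5 group; replicate 3 had 0 as well.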
